A study of Mus musculus with 6 samples.

Results

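The Usp genes encode ubiquitin-specific proteases, the largest family of deubiquitinases. They were measured in microglia, the resident macrophages of the brain, with and without the microRNA miR-137. Members were the rows of the count table whose symbol begins with Usp and a number, leaving out Usp18, Usp9x and Usp9y. The rule found 44 of 17459 genes, of which 42 passed the filter on low counts. It rests on the symbol alone and so takes in Usp6nl, which encodes a Rab GTPase-activating protein and not a protease. Usp29 had 1 count in each of 2 libraries and Usp44 had 0 counts in all 6. A count of 0 allows up to 3 counts per library, counting error only, and these genes were not tested.

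The cKO mice were Mir137loxP/loxP and carried Tmem119-CreERT2, a recombinase that needs tamoxifen and is driven by the microglial gene Tmem119. The cWT mice were Mir137+/+ with the same Tmem119-CreERT2. All were males of the strain C57BL/6J, 8 weeks old, and both genotypes had the Cre and had received tamoxifen for 7 days when 7 to 8 weeks old, so no group lacks either. There were 3 libraries per genotype. The design text mentions 4 mice and does not tie them to libraries, so the spread behind each p-value is that of these libraries and may be technical.

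Ubiquitin is a small protein that enzymes attach to other proteins, singly or in chains, to mark them for the proteasome, for sorting to the lysosome or for assembly of signalling complexes. Usp proteases are cysteine proteases that cut ubiquitin off again. Each is tied to its own substrates, partners or membrane, so members differ widely in the proteins they rescue or switch off.

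The microRNA removed in cKO is shown because its seed (bases 2 to 8, in capitals) defines which transcripts could pair with it. The RefSeq sequence (GRCm38, chromosome 3, 118433901 to 118433923, plus strand) is:
mmu-miR-137-3p: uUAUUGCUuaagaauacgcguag
The complementary letters AGCAATA were looked for in 3' UTRs, taking the longest one annotated. They were present in 4 of 42 Usp genes (9.52%), against 1331 of 13001 tested genes with a 3' UTR (10.2%). The median length of these UTRs was 1654 bases in Usp genes and 1191 over all. These are the sites in Usp genes, with the match in capitals, on the strand of the gene:
Usp24: attcaagattgacaagAGCAATAataaat
Usp36: gcctgtggctaccagtAGCAATAtgtttc
Usp46: caatctaaaccctttgAGCAATActgtca
Usp53: acaaagtgtctaggaaAGCAATAtttgct
On GRCm38 the matches lie at chr4:106439430-106439436 (plus) in Usp24, chr11:118260832-118260838 (minus) in Usp36, chr5:73998535-73998541 (minus) in Usp46 and chr3:122933377-122933383 (minus) in Usp53. In Usp24 alone an A follows the match. A match of letters is a description and not a site of action. These 4 genes are described with their roles among the results.

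Several features of the libraries touch every value below. Total estimated counts were 12068698 to 15212806 in cKO and 16503817 to 17482042 in cWT. In the authors' deposited table the base mean of Mir137 was 0, so its deletion was not checked here. Log2 fold changes over all genes followed transcript length, with a Spearman correlation of -0.72 across 13393 genes, which are not independent replicates. The 10 microglial markers were all detected, with summed levels of 49952 to 56964 CPM (TMM-scaled counts relative to library size) in cKO and 37783 to 40149 CPM in cWT. The 5 choroid plexus markers summed to 10395 to 14067 CPM in cKO and 2150 to 2420 CPM in cWT, and the 5 neutrophil markers with a row to 10650 to 15061 CPM in cKO and 3763 to 4345 CPM in cWT. Summed monocyte markers (297 to 391 CPM in cKO, 154 to 185 CPM in cWT), endothelial markers (1387 to 1662 CPM in cKO, 917 to 1107 CPM in cWT), oligodendrocyte markers (291 to 429 CPM in cKO, 273 to 283 CPM in cWT) and neuronal markers (20.2 to 27.6 CPM in cKO, 13.9 to 16.8 CPM in cWT) were also higher in every cKO library. Those of astrocytes, border-associated macrophages and erythroid cells overlapped between genotypes. No marker with a row was at 0 in all libraries. Several sums hold markers of mixed direction, at an adjusted p under 0.05 in the edgeR test described below. In cKO 5 microglial markers were higher and 4 lower of 10 tested, and endothelial ones 2 and 3 of 5. Neutrophil markers were 3 and 1 of 5, monocyte 2 and 1 of 4, and oligodendrocyte 4 and 1 of 6. Neuronal markers were 2 and 0 of 3, and choroid plexus 5 and 0 of 5. Over all genes 35.6% were higher and 36.5% lower. The part of these other cells in the results was not tested, and in bulk samples fewer cells of a type and less RNA per cell cannot be told apart.

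Most Usp transcripts were less abundant in cKO microglia. The summed level of the 44 genes was 1322, 1337 and 1320 CPM in the 3 cKO libraries, against 2229, 2203 and 2303 CPM in the cWT libraries, so that the genotypes lay far apart. Of the 42 genes tested with edgeR's quasi-likelihood test, 34 were called at a Benjamini-Hochberg adjusted p under 0.05 (72.1% of all 13490 tested genes). Of the 42, 33 fell (78.6%; all genes 36.5%), 1 rose (2.38%; all genes 35.6%) and 8 were not called. The median log2 fold change, cKO over cWT, was -0.86 over the Usp genes and -0.02 over all genes. A fall of at least 2-fold was called for 15 Usp genes (35.7%), against 19.6% of all genes. All 3 cKO libraries lay below all 3 cWT libraries for 33 Usp genes (37.9% of all genes) and above them for 1 (36.7% of all genes). Usp transcripts are long, and a fall was common among long transcripts. Their median length was 4655 bases, against 2997 over all tested genes with a length, and 31 of the 42 lay in the 3 longest deciles, where 65.6%, 75.8% and 83.2% of all genes fell. Of the 42, Usp43 alone reached the count filter in every cWT library but not in every cKO library.

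**Figure D1:**
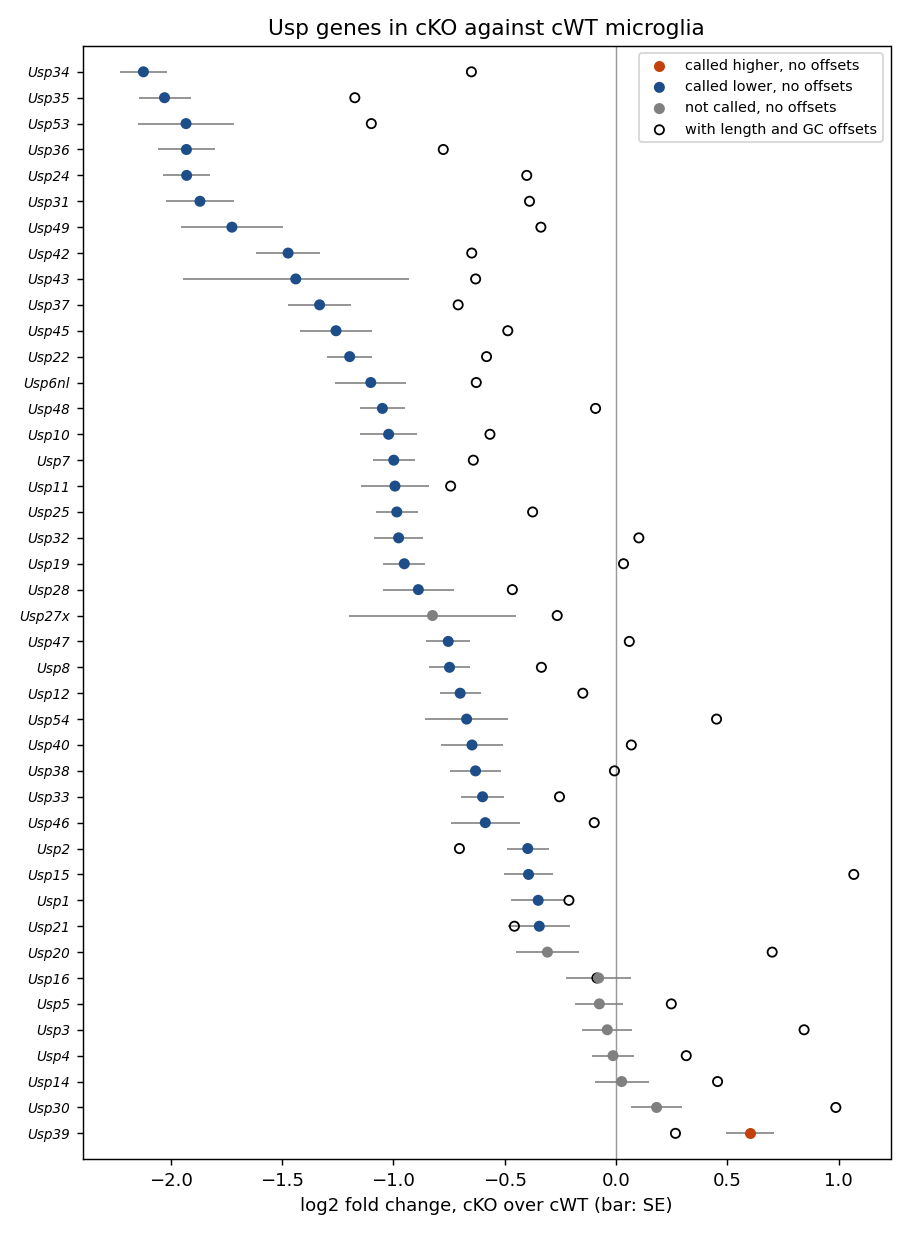
Log2 fold change of each of the 42 tested Usp genes, cKO over cWT, with its SE as a bar (3 libraries per genotype), coloured by its call; open circles give the value with length and GC offsets. Without offsets 33 genes fell and Usp39 rose, while with them 20 were lower and 9 higher.

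All 8 tested proteases of DNA repair and the cell cycle fell, where 36.5% of all genes did, with a median log2 fold change of -1.01. With offsets for length and GC content, described further on, 6 of them were lower (27.6% of all genes) and 0 higher (29.7% of all genes). The calls of Usp47 and Usp28 depended on the annotated length, as given further on. Usp24, a very large protease that acts on DNA damage proteins in human cells, had 41.4, 51.6 and 48.6 CPM in cKO, against 175, 173 and 191 CPM in cWT. The genotypes were far apart (log2 fold change -1.93, SE 0.10, adjusted p = 2.547e-11). With the offsets Usp24 was lower by much less, at -0.40 (adjusted p = 0.0001972). Usp7, which stabilises both p53 and its ligase MDM2, had 48.3, 48.9 and 44.3 CPM in cKO and 92.0, 95.6 and 94.6 CPM in cWT. Its level in cKO was 50.1% of that in cWT (log2 fold change -0.998, SE 0.09, adjusted p = 2.762e-08). Usp47, which acts on DNA polymerase beta, had 49.4, 48.0 and 42.2 CPM in cKO and 77.8, 76.5 and 80.7 CPM in cWT, a smaller difference that still kept the genotypes apart (-0.75, SE 0.10, adjusted p = 1.766e-06). Of the others, Usp37, which acts on cyclin A, fell by 1.33 on the log2 scale and Usp45, a partner of the repair nuclease ERCC1, by 1.26. Usp10, found with the stress granule protein G3BP1, fell by 1.02 and Usp28, which stabilises MYC, by 0.89. Usp1, which releases ubiquitin from FANCD2 and PCNA, moved least in this group (-0.35, SE 0.12, adjusted p = 0.01627). Its call was lost without cKO replicate 2 (adjusted p = 0.0875) or cWT replicate 1 (adjusted p = 0.0656).

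Among 7 proteases of histones and transcription, 4 fell (36.5% of all genes) and 3 were not called. With the offsets 3 were lower (27.6% of all genes) and 1 higher (29.7% of all genes), few genes to set beside those shares. Usp22, the protease of the SAGA coactivator that acts on histone H2B, had 45.6, 47.4 and 51.2 CPM in cKO and 99.2, 111 and 120 CPM in cWT. Every cKO library was below every cWT library (log2 fold change -1.20, SE 0.10, adjusted p = 6.93e-09). Usp49, an H2B protease expressed at a low level, had 2.14, 2.30 and 2.58 CPM in cKO and 7.71, 6.76 and 8.90 CPM in cWT (-1.72, SE 0.23, adjusted p = 2.275e-06). The exons of Usp49 share 4392 bases with the predicted gene Gm20517 on the same strand, so its reads are uncertain. Usp42, which acts on p53 in human cells, fell by 1.47. The H2A proteases Usp3, at -0.04 (SE 0.11), and Usp16, at -0.08 (SE 0.15), were not called. Usp21, also an H2A protease, was called at -0.34 (adjusted p = 0.03362, and -0.46 with the offsets), with genotypes that overlapped. The difference between H2A and H2B proteases was not tested. The Usp21 call was lost without cKO replicate 1 or 2 or cWT replicate 2 or 3 (adjusted p from 0.0813 to 0.226). Usp27x, a close relative of Usp22 at 1.33 CPM in cKO and 2.36 CPM in cWT, stood at -0.82 (SE 0.38, adjusted p = 0.05816). It was called without cKO replicate 1 (-1.11, adjusted p = 0.023), with limma-voom (adjusted p = 0.0399) and when low counts were kept (adjusted p = 0.0489).

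Of 9 proteases of endosomes and organelle membranes, 7 fell (36.5% of all genes), 0 rose and 2 were not called. With the offsets 3 were lower (27.6% of all genes) and 2 higher (29.7% of all genes). Usp8 binds the ESCRT machinery and deubiquitinates receptors on endosomes. Its mean CPM in cKO, not corrected for transcript length, was the highest of the Usp genes. Usp8 had 106.5, 102 and 112 CPM in cKO, against 184, 173 and 181 CPM in cWT. It was lower in every cKO library (log2 fold change -0.75, SE 0.09, adjusted p = 6.419e-07). Usp12, which works with the WD-repeat protein Wdr48, had 84.0, 89.7 and 86.7 CPM in cKO and 144, 131 and 147 CPM in cWT (-0.70, SE 0.09, adjusted p = 1.94e-06). Its paralog Usp46 fell by 0.59 (SE 0.16). With the offsets neither was called, Usp12 at -0.15 (adjusted p = 0.0913) and Usp46 at -0.10 (adjusted p = 0.571). The difference between the paralogs was not tested. Usp19, which has isoforms anchored in the endoplasmic reticulum, had 62.5, 69.3 and 70.3 CPM in cKO and 127, 127 and 137 CPM in cWT. The cKO mean was 51.7% of the cWT mean (-0.95, SE 0.09, adjusted p = 5.164e-08). Usp32, a membrane-bound protease that acts on the late endosomal GTPase Rab7 in human cells, had 23.7, 29.1 and 26.1 CPM in cKO and 53.1, 49.8 and 52.5 CPM in cWT (-0.98, SE 0.11, adjusted p = 2.958e-07). Usp19 and Usp32 were also not called with the offsets (0.03, adjusted p = 0.727, and 0.10, adjusted p = 0.382). Usp33, which with its paralog Usp20 deubiquitinates adrenergic receptors in human cells, fell by 0.60. Usp20 was at -0.31 (SE 0.14, adjusted p = 0.05875), and it was called without cKO replicate 3 (-0.38, adjusted p = 0.0279) and when low counts were kept (adjusted p = 0.0429).

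Usp35 and Usp30 stood at opposite ends of that group, with transcripts of 4262 and 4604 bases. Usp35, linked to mitochondria and to mitosis in human cells, had 12.1, 11.2 and 11.2 CPM in cKO and 45.3, 47.1 and 47.9 CPM in cWT, tight groups about 4.08-fold apart (log2 fold change -2.03, SE 0.12, adjusted p = 5.132e-11). Usp30, a protease of the outer mitochondrial membrane that opposes the mitophagy ligase Parkin, had 28.5, 31.8 and 33.8 CPM in cKO and 26.9, 27.4 and 28.8 CPM in cWT. Those groups overlapped, and Usp30 was not called (0.18, SE 0.11, adjusted p = 0.1559). Its exons overlap 329 bases of Alkbh2 on the other strand. Alkbh2 rose (log2 fold change 2.10), and no source used here gives the strand setting of the counting, so the reads of such a pair may not be told apart. Promoters of this pair are printed so that their letters can be compared, from 250 bases before to 50 after the RefSeq start (GRCm38), with matches in capitals:
Usp35: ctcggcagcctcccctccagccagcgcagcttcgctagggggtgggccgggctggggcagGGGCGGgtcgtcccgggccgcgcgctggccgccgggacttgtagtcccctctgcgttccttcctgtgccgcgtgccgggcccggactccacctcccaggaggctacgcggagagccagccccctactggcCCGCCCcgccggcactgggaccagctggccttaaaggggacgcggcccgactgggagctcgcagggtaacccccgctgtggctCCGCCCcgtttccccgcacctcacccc
Usp30: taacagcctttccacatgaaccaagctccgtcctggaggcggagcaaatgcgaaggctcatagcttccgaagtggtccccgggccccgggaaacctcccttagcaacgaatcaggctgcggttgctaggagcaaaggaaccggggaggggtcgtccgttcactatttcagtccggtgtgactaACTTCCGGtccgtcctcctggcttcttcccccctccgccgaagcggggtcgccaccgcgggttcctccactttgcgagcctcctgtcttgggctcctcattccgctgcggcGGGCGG
They lie at chr7:97332060-97332359 (minus) for Usp35 and chr5:114100083-114100382 (plus) for Usp30. The GC box letters GGGCGG, searched on both strands, occurred 3 times in the Usp35 window and once in that of Usp30, which also held the ETS letters CCGGAAGT once, on the other strand. None of these matches overlapped another. A GC box was in 25 of the 33 Usp windows in the table (75.8%) and in 63.5% of the windows of 10266 tested genes. The ETS letters were in 4 Usp windows (12.1%, against 8.02%), the AP-1 letters TGANTCA in 3 (9.09%, against 5.0%), and AGCAATA in 1 (3.03%, against 1.15%). These are letters in a window and do not show binding.

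Of 9 proteases of immune and growth factor signalling, 8 fell (36.5% of all genes) and Usp4 was not called. With the offsets 5 were lower (27.6% of all genes) and 2 higher (29.7% of all genes). Usp34, a very large protease that acts on axin in Wnt signalling, had the lowest fold change of the family, with 20.2, 19.3 and 16.8 CPM in cKO and 82.9, 81.0 and 80.2 CPM in cWT. Its level in cKO was 23.0% of that in cWT (log2 fold change -2.12, SE 0.11, adjusted p = 1.41e-11). Its exons overlap 2137 bases of Ahsa2 on the other strand, and it was 1 of 2 Usp genes with estimates that are not whole numbers, while Ahsa2 rose by 0.80 on the log2 scale. Usp31, linked to NF-kB in human cells, had 6.13, 5.76 and 4.93 CPM in cKO and 19.2, 20.8 and 21.2 CPM in cWT (-1.87, SE 0.15, adjusted p = 4.663e-09). Usp48, which acts on the NF-kB subunit RelA, had 34.3, 40.5 and 36.2 CPM in cKO and 74.7, 76.9 and 78.0 CPM in cWT (-1.05, SE 0.10, adjusted p = 3.135e-08). Both were separated from cWT in every library. With the offsets Usp31 was lower at -0.39 (adjusted p = 0.0296), while Usp48 was not called (-0.09, adjusted p = 0.348). Usp25, which acts on TRAF proteins of innate immune receptors, fell by 0.98. Usp38, which limits interferon induction through TBK1, fell by 0.63, and like Usp48 was not called with the offsets (-0.0069, adjusted p = 0.96).

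Usp2, whose expression follows the circadian clock in many tissues, was, over the 6 libraries, the highest Usp gene per kilobase of transcript, at 40.9 CPM per kilobase in cKO and 53.9 in cWT. Its levels were 84.6, 81.1 and 86.8 CPM in cKO and 102, 110 and 120 CPM in cWT, close but not overlapping (-0.40, SE 0.09, adjusted p = 0.001086). Next per kilobase came Usp8 with 25.8 in cKO and 43.3 in cWT, Usp12 with 20.1 and 32.6, and Usp4 with 23.8 and 24.0. Usp4, Usp11 and Usp15 are paralogs that act on TGF-beta signalling in human cells. Usp4 had 86.8, 85.3 and 89.3 CPM in cKO and 82.5, 85.6 and 95.7 CPM in cWT, so that the genotypes overlapped (-0.01, SE 0.09). Usp15 had 39.6, 40.4 and 34.4 CPM in cKO and 54.1, 49.7 and 46.2 CPM in cWT, which did not overlap (-0.39, SE 0.11, adjusted p = 0.003439). Usp11 fell by 0.99 (SE 0.15), to 8.80 CPM in cKO against 17.5 CPM in cWT. The differences among the 3 paralogs were not tested.

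The nucleolar and spliceosomal members hold the 1 increase. Usp39, a spliceosome protein of the tri-snRNP that lacks protease activity, had 46.7, 52.6 and 58.8 CPM in cKO and 34.9, 33.9 and 35.6 CPM in cWT. All cKO libraries were above all cWT libraries, 1.52-fold on average (log2 fold change 0.60, SE 0.11, adjusted p = 7.212e-05), and with libraries scaled by total count alone the call was lost (0.21, adjusted p = 0.0982). Its transcript has 2244 bases, and all genes of its length decile had a median log2 fold change of 0.28. With the offsets Usp39 was higher at 0.27 (adjusted p = 0.01512). Usp36, a nucleolar protease, stood opposite, with 7.59, 9.03 and 8.50 CPM in cKO and 31.1, 32.6 and 32.2 CPM in cWT (-1.93, SE 0.13, adjusted p = 3.278e-10). Usp53, long held inactive as a protease, had 3.12, 3.37 and 2.43 CPM in cKO and 12.2, 12.4 and 9.20 CPM in cWT (-1.93, SE 0.22, adjusted p = 2.386e-07). Its paralog Usp54 was at -0.67 (SE 0.19), with 19.0 CPM in cKO replicate 2 above the lowest cWT library at 18.8 CPM. Usp6nl fell by 1.10, Usp40 by 0.65 and the scarce Usp43 by 1.44 (SE 0.51), a call that was lost without cKO replicate 2 or 3 or cWT replicate 2 or 3 (adjusted p from 0.0515 to 0.0869).

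The 2 proteases that work at the proteasome or on free ubiquitin chains were not called without the offsets. With the offsets 2 were higher (29.7% of all genes) and 0 lower (27.6% of all genes), few genes to set beside those shares. The call of Usp14 depended on the annotated length, as given further on. Usp14, which sits on the proteasome and trims chains from its substrates, had 49.8, 36.8 and 37.4 CPM in cKO and 42.3, 40.6 and 38.7 CPM in cWT, with cKO replicate 1 above and the other cKO libraries below the cWT range (log2 fold change 0.03, SE 0.12). Without cKO replicate 1 it stood at -0.13 (adjusted p = 0.3005). Its exons overlap 2169 bases of Thoc1 on the other strand, and its estimates were also not whole numbers, while Thoc1 rose by 0.61. Usp5, which cuts unanchored ubiquitin chains, was at -0.07 (SE 0.11), with 47.6, 55.9 and 62.3 CPM in cKO and 55.1, 58.6 and 61.1 CPM in cWT.

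**Figure D2:**
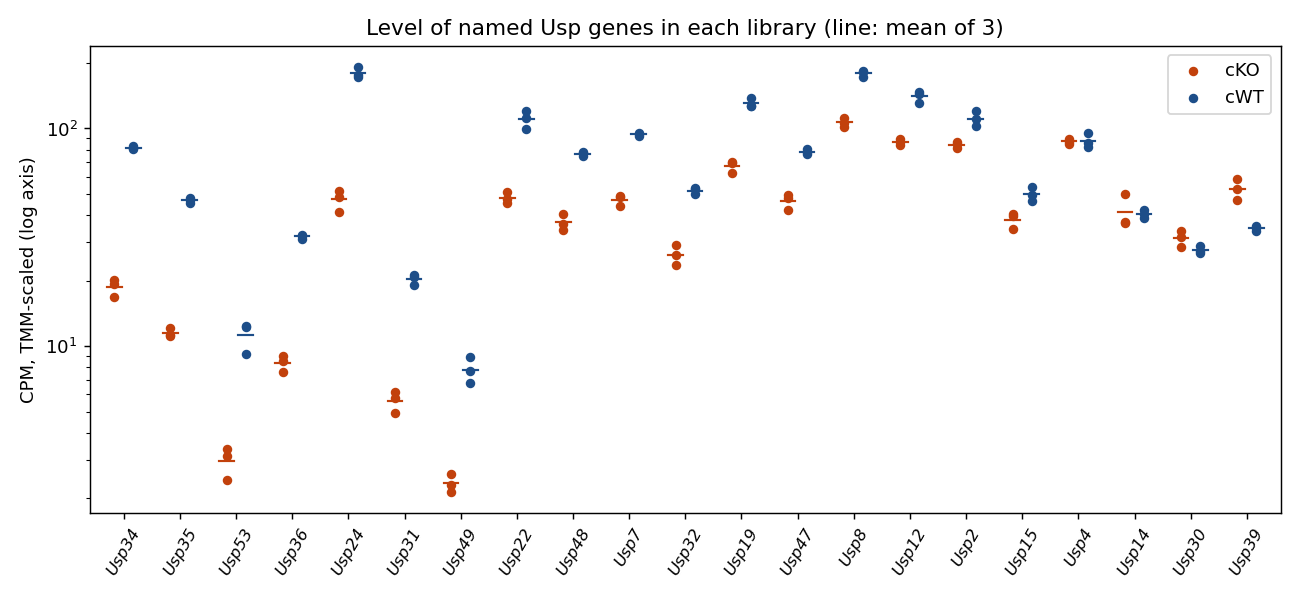
TMM-scaled CPM on a log axis in each of the 3 cKO and 3 cWT libraries for the 21 named Usp genes, ordered by log2 fold change, with a line at each mean. The genotypes are apart from Usp34 to Usp15, overlap in Usp4, Usp14 and Usp30, and in Usp39 the cKO libraries are above the cWT ones.

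The authors' deposited table had 33 Usp genes lower and 1 higher at an adjusted p under 0.05, against 28.7% lower and 29.2% higher over the 16374 genes with an adjusted p there. The sign was that of edgeR for all 42, and the authors' deposited table had a median log2 fold change of -0.85 over them, with Usp34 at -2.12 and Usp39 at 0.60.

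Fold change followed length within the family as it did over all genes, with a Spearman correlation of -0.47 over the 42 genes, given as a description, since all values come from the same 6 libraries. The 7 Usp genes in the longest decile had transcripts of 6580 to 12200 bases, and all genes of that decile had a median log2 fold change of -1.44. Usp34, Usp24, Usp31 and Usp49 lay 0.68, 0.49, 0.43 and 0.28 below that median on the log2 scale, while Usp15, Usp54 and Usp32 lay 1.05, 0.77 and 0.47 above it. Usp35 was farthest below the median of its own decile, with a difference of -1.35, followed by Usp2 at -1.025. In all, 25 Usp genes were below the median of their decile and 17 above it, with a median difference of -0.21.

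**Figure D3:**
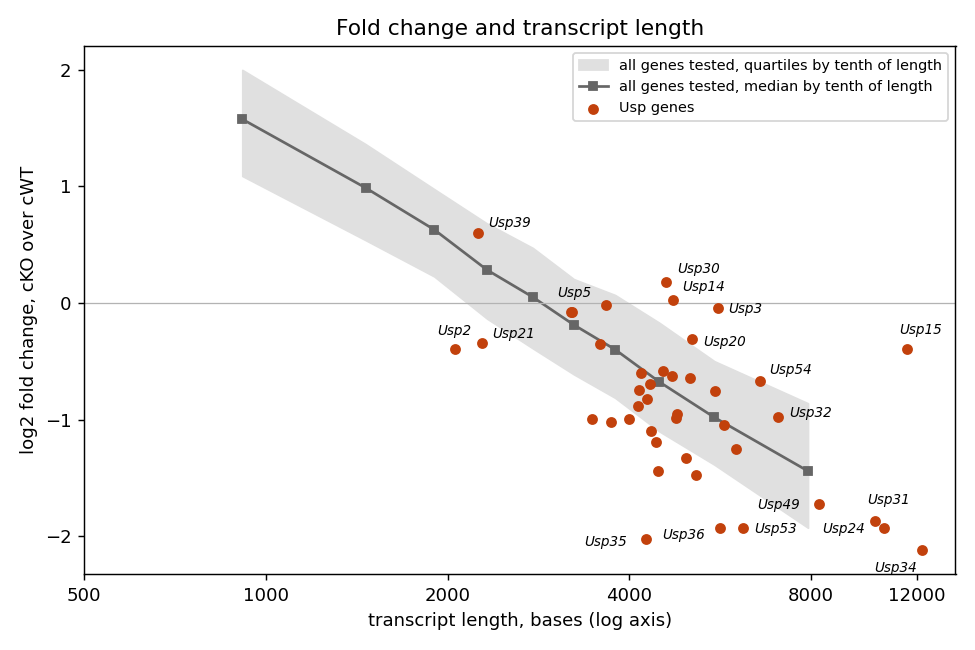
Log2 fold change, cKO over cWT, of the 42 Usp genes (points) against annotated transcript length on a log axis, with the median (line) and quartiles (band) of all 13393 tested genes by decile of length. Among others, Usp35, Usp2 and Usp53 lie below the quartiles of their decile, and Usp15, Usp30, Usp3 and Usp14 lie above them.

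Offsets for each library's trend with transcript length and GC content were added to the same test, and the family then split in direction. Of the 42 genes, 29 were called (57.2% of all genes), 20 lower (47.6%; all genes 27.6%) and 9 higher (21.4%; all genes 29.7%). The median log2 fold change was -0.30 over the Usp genes and 0.00067 over all genes. All 20 genes lower with the offsets were also lower without them. Usp35 was the lowest at -1.17 (SE 0.11, adjusted p = 6.407e-09), followed by Usp53 at -1.10, Usp36 at -0.78 and Usp11 at -0.74. Usp37, Usp2, Usp34, Usp42 and Usp7 followed with values from -0.71 to -0.64, and Usp22 was at -0.58. Another 11 genes that fell without offsets were not called with them. These were Usp48 at -0.09, Usp19 at 0.03, Usp32 at 0.10, Usp47 at 0.06, Usp12 at -0.15, Usp49 at -0.34, Usp38 at -0.0069, Usp46 at -0.10, Usp1 at -0.21, Usp40 at 0.07 and Usp43 at -0.63. Usp15 and Usp54 turned from lower to higher, at 1.07 (adjusted p = 3.506e-10) and 0.45 (adjusted p = 0.02277). Of the 8 genes not called without offsets, 6 were higher with them, Usp30 at 0.99, Usp3 at 0.84, Usp20 at 0.70, Usp14 at 0.46, Usp4 at 0.32 and Usp5 at 0.25. Usp39 was higher in both fits.

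These values hold only as far as the annotated length of each gene does. The principal transcript of Usp15 has 11525 bases, while its coding transcript of median length has 4666. With lengths from the transcripts of median length Usp15 stood at 0.29 (adjusted p = 0.005525), Usp3 was not called at 0.06, and Usp14 was lower at -0.38 (adjusted p = 0.002016), whereas Usp30 was at 1.08 and Usp35 at -1.20. In that fit, chosen after seeing the data, 24 Usp genes were called (62.2% of all genes), 16 lower (28.2% of all genes) and 8 higher (34.0% of all genes). Usp47, not called with the other offsets, was higher in it at 0.19 (adjusted p = 0.044). Usp31 and Usp28, lower with the other offsets, were not called in it (-0.28, adjusted p = 0.113, and -0.25, adjusted p = 0.176). Reported changes are relative to the TMM scale. With library size alone the median of all genes shifted by -0.39, to -0.42. On that scale 40 Usp genes were called (74.7% of all genes), all 40 lower (50% of all genes) and 0 higher (24.7% of all genes). Of the 8 genes not called on the TMM scale, Usp3, Usp4, Usp5, Usp14, Usp16, Usp20 and Usp27x were among those lower, and Usp30 stood at -0.21.

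Other genes of the ubiquitin system are given by list, to be read beside the 35.6% of all genes that rose and the 36.5% that fell, and with the offsets beside 29.7% higher and 27.6% lower. Of 28 cysteine deubiquitinases of other families, 8 rose and 11 fell (median log2 fold change -0.09), near those shares, and with the offsets 8 were higher and 8 lower. Mindy2, which cuts lysine-linked ubiquitin chains, was at -1.49 (-0.31 with the offsets), and Otud4, of the OTU family, at -1.53 (-0.43 with the offsets). Among 12 members of the JAMM metalloprotease family, 9 rose and 2 fell (median 0.67), but with the offsets 5 were higher and 3 lower. Cops6, a subunit of the COP9 signalosome, rose by 1.82 on the log2 scale (1.10 with the offsets). Prpf8, the core spliceosome protein, which has the JAMM fold without the protease activity, was at -1.81 (-0.50 with the offsets). Of 15 partner proteins of Usp enzymes, 1 rose and 8 fell (median -0.46), but with the offsets 4 were higher and 5 lower. Atxn7, which holds Usp22 in SAGA, was at -2.29 (-1.18 with the offsets), and Eny2, a small subunit of the same module, at 1.27 (1.05 with the offsets). Of the 4 ubiquitin genes 3 rose and 1 fell, and the counts were the same with the offsets. Ubb, a polyubiquitin gene, had 2478 ± 44.0 CPM in cKO and 665 ± 10.1 CPM in cWT (SD, n = 3 each), and its log2 fold change was 1.90 (1.07 with the offsets). Rps27a, which encodes ubiquitin fused to a ribosomal protein, was at 2.37 (0.74 with the offsets). Of 31 members of the E1 and E2 families, most of which load or pass on ubiquitin, 20 rose and 5 fell (median 0.57). With the offsets 15 of these were higher and 5 lower. Ube2s was at 1.40 (0.50 with the offsets). Ube2e1 was at 1.25, but was not called with the offsets (0.09, adjusted p = 0.333). These lists also differ in length, with median transcripts of 3348 bases for the other cysteine deubiquitinases, 1905 for the JAMM family, 3706 for the partners, 1145 for the ubiquitin genes and 2480 for the E1 and E2 enzymes. With the offsets their medians were 0.03, 0.16, -0.13, 0.78 and 0.25 in that order.

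**Figure D4:**
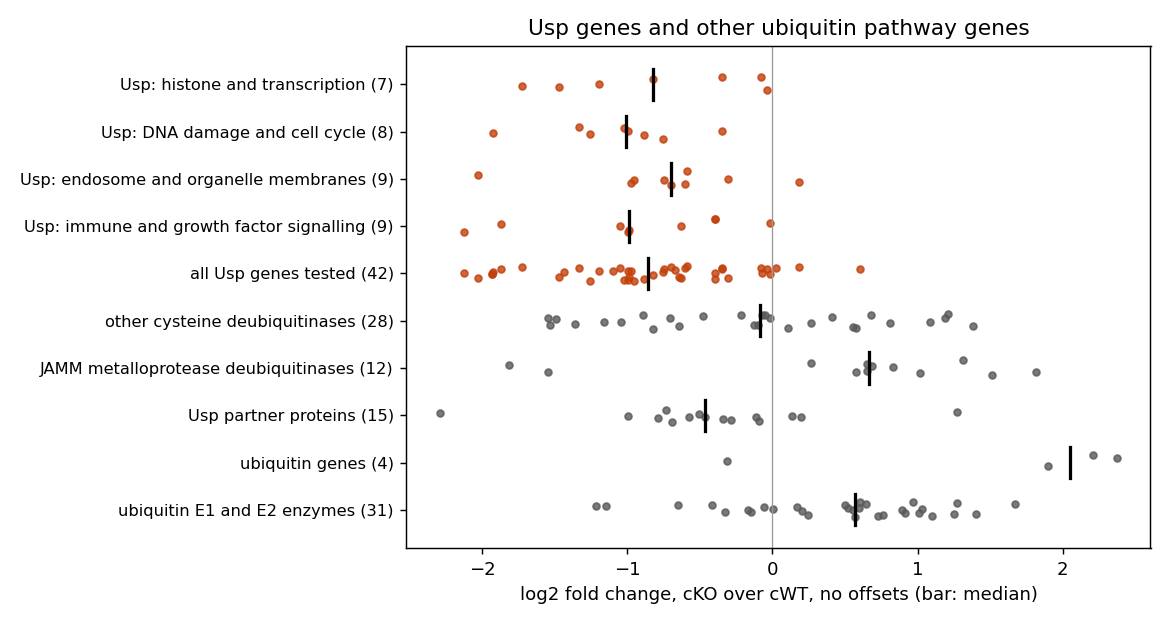
Log2 fold change, cKO over cWT without offsets, of single genes in 4 role groups of Usp genes, in the 42 tested Usp genes and in 5 other ubiquitin lists, with the number of genes in brackets and a bar at each median. The medians run from -1.01 in the DNA damage group of Usp genes to 2.05 in the ubiquitin genes.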

How the data were processed

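The authors deposited estimated counts per gene symbol for 6 libraries, unscaled; 5.5% to 5.85% of values per library were not whole, and all were rounded. The submitters' processing notes list STAR 2.7.9a, RSEM, DESeq2, GRCm38 and mm10 and assign them no roles. The authors' comparison table holds, per the file headers, a base mean (signal), a log2 fold change and its error, a statistic (score), and p-values.

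The test was edgeR 4.0.16 (quasi-likelihood, R 4.3.3), two-sided, on TMM-scaled counts with genotype as sole term; filterByExpr (minimum count 10) kept 13490 genes and dropped 3969, and Benjamini-Hochberg adjusted p under 0.05 was called. It was first tested on simulated data. CPM use the TMM-scaled library size. Libraries of 1 genotype differed beyond counting noise (chi-square per degree of freedom 3.76 to 18.2), so none was merged. The floor of 3 counts covers counting error only.

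Transcripts came from GENCODE M21 (GRCm38), 511 symbols through RefSeq synonyms. Offsets were splines (5 degrees of freedom) of log2 CPM on log length and on GC content per library, for 13393 genes. Alternatives were DESeq2 1.42.0, voom (limma 3.58.1), other scalings and filters, a replicate block and leaving out each library.

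Per-library values are given for the 4 largest increases and 6 largest decreases among called members, the 4 highest per kilobase, up to 6 whose direction or call changes with offsets, and Usp7, Usp14, Usp15, Usp22 and Usp30; values of Usp5 are given beside Usp14, chosen after they were seen. Other lists name their 2 smallest p. Members and lists were chosen with earlier results of these data known.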

Additional observations from a re-analysis of the deposited data

How the results depend on the processing

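Of 34 called Usp genes, 30 kept direction and call under all 15 alternatives without offsets, and 31 did so whichever library was left out. The exceptions were Usp1, Usp21, Usp43 and, with library size alone, Usp39; Usp21 was also lost with upper quartile scaling (adjusted p = 0.0753). Mean levels were 0.604 CPM in cKO and 1.59 CPM in cWT for Usp43, and 1.33 CPM in cKO and 2.36 CPM in cWT for Usp27x. Causes were not tested.

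With length and GC offsets 20 genes were lower and 9 higher, and the median log2 fold change was -0.30. With the replicate block and those offsets the counts were 20 and 9 and the median -0.32. Offsets from transcripts of median length, chosen after seeing the data, gave 16, 8 and -0.17. Library size alone gave 0 higher and a median of -1.25. Same-number libraries correlated at 0.0985, 0.0335 and 0.0882 in their deviations, above those of different number, at -0.1029 to 0.0167. All these values are small, and whether the numbers pair the libraries was not tested. The replicate block without offsets gave 33 lower and 1 higher.

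Signs turned as follows. With length and GC offsets, log2 fold changes were 1.068 for Usp15, 0.0338 for Usp19, 0.7013 for Usp20, 0.8444 for Usp3, 0.1027 for Usp32, 0.3154 for Usp4, 0.0689 for Usp40, 0.0597 for Usp47, 0.2483 for Usp5 and 0.4514 for Usp54. With the replicate block added they were 1.068, 0.0350, 0.6998, 0.8434, 0.0983, 0.3157, 0.0639, 0.0597, 0.2463 and 0.4322 in that order. With offsets from transcripts of median length they were 0.0648 for Usp12, -0.3798 for Usp14, 0.2933 for Usp15, 0.7109 for Usp20, 0.0557 for Usp3, 0.2065 for Usp32, 0.1773 for Usp38, 0.4518 for Usp4, 0.0900 for Usp46, 0.1943 for Usp47, 0.0434 for Usp48, 0.3113 for Usp5, 0.5561 for Usp54 and 0.2258 for Usp6nl. Library size alone gave -0.3715 for Usp14 and -0.2106 for Usp30. With no filter on low counts Usp14 was at -0.0178. Upper quartile scaling gave 0.0218 for Usp3 and 0.0473 for Usp4. Usp4 was at 0.00545 with DESeq2 size factors, 0.00542 with DESeq2's test and 0.00482 with at least 5 CPM in 3 libraries. Leaving out 1 library gave -0.1332 to 0.1198 for Usp14, -0.233 to 0.101 for Usp16, -0.0824 to 0.0572 for Usp3, -0.0646 to 0.0452 for Usp4 and -0.1559 to 0.0149 for Usp5, with none of these 5 genes called when a library was left out.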
